A study of Mus musculus with 6 samples.

Results

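The 8 genes described here are found in lymphocytes or encode signals that gather lymphocytes in lymphoid tissue. They are Cd79a, Cd79b, Cd3g, Cd52, Ptprc, Ltb, Cxcl13 and Ccl19, 8 of the 24421 genes listed in each count file, and all 8 passed the filter on low counts that left 14789 genes for testing. Cd3g and Cxcl13 reached that filter in 0 WT libraries, Ccl19 in 1 and Ltb in 2, so these 4 passed through their cKO counts, while the other 4 reached it in all 6 libraries. All 8 were selected on their counts in the present comparison, with earlier results of it known, so the difference between the groups in these 8 genes is given as a description with no test.

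RNA came from mouse sciatic nerve, the large mixed nerve of the hind limb, in 3 libraries labelled YAP/TAZ-DBL-cKO (cKO below) and 3 labelled YAP/TAZ-WT (WT below), which the design text calls 3 mice per genotype. YAP and TAZ, encoded by Yap1 and Wwtr1, are co-activators of transcription at the end of the Hippo pathway. The age and strain, the promoter or Cre behind the deletion, any allele carried by both groups and whether nerves were pooled are not stated in the labels. P-values therefore measure the spread between these libraries.

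Library sizes were 24651262 to 32003497 gene counts in the cKO group and 41270894 to 47044158 in the WT group. Yap1 lay at 102.6 to 108.8 CPM (counts per 1e6 counts, with TMM-scaled library sizes) in cKO and 120.4 to 123.7 CPM in WT, and Wwtr1 at 337.4 to 372 CPM and 253.8 to 284.2 CPM, so whole-gene counts do not check the cKO label and all directions rest on the labels. Schwann cell markers were present in every library, their 9 listed genes summing to 21040 to 33480 CPM in cKO and 78880 to 111400 CPM in WT. Of the 9, 6 fell in cKO (edgeR), beside 6.17% of all tested genes. Of 10 listed skeletal muscle genes, 9 were higher in each cKO library than in any WT library, beside 15.3% of all tested genes. The 10 summed to 3883, 8711 and 5150 CPM in cKO 1, 2 and 3 and to 1492, 384.3 and 1412 CPM in WT 1, 2 and 3.

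CD79A and CD79B are the signalling pair of the B cell receptor, and CD3G is a chain of the complex that signals for the T cell receptor. Lymphotoxin beta, made by lymphocytes, acts on stromal cells through the lymphotoxin beta receptor and the alternative NF-kappaB pathway. In lymph nodes and at sites where lymphocytes collect, this route is known to raise the chemokines CXCL13, which attracts B cells through CXCR5, and CCL19, which attracts T cells and dendritic cells through CCR7. A healthy peripheral nerve holds many macrophages and few lymphocytes.

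The start regions of the chemokine gene with the lowest WT counts and of the lymphotoxin ligand gene are shown because they sit at the ends of this route. Both are RefSeq upstream sequence on GRCm38.p6, the assembly of the submitters' mm10 build, read 5′ to 3′ up to the earliest annotated start. Capitals mark motif matches.

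Cxcl13, chr5:95956689-95956938, plus strand: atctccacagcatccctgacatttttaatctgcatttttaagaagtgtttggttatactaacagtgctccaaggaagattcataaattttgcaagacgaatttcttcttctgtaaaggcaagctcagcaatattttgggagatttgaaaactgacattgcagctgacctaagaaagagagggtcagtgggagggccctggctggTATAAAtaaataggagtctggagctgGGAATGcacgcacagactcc

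Ltb, chr17:35194257-35194438, plus strand: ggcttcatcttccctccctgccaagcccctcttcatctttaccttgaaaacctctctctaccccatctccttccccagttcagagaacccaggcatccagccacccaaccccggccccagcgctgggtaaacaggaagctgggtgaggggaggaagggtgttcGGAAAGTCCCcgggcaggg

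Upstream windows of 250 bases were available for 6 of the 8 genes and were searched on both strands for 6 motifs. The Cxcl13 capitals are a TATA box (TATAAA) 46 to 41 bases before the RefSeq start and the TEAD motif GGAATG 20 to 15 bases before it; TEAD factors are the partners through which YAP and TAZ bind DNA. The TATA box letters were in 12.4% and the TEAD letters in 12.6% of 32851 upstream windows of this length. The Ltb capitals match the kappaB consensus, 87 to 78 bases before its RefSeq start, a match found in 7.25% of windows. The Ets core GGAAGT, present in 19.7% of windows, occurred in the windows of Cd79a and Ptprc. The TATA box letters also occurred for Ptprc, on the reverse strand, 187 to 182 bases before the first of its RefSeq starts. No match to these 6 motifs, which include the octamer ATGCAAAT and the palindromic EBF motif, was found in the windows of Cd3g and Ccl19. These are matches of letters and say nothing of binding.

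All 8 genes had higher levels in every cKO library than in any WT library. Among all tested genes, 15.3% were separated in that way and 4.77% were called higher and 6.17% lower by edgeR (adjusted p under 0.05, 706 and 912 genes; 1273 and 606 when scaled by total counts, under which the median over all tested genes moved from 0.02 to 0.15 on the log2 scale, with all 8 genes still higher in cKO); since these values chose the 8 genes, nothing is read from their share. In whole tissue, more cells of a type and more RNA per cell cannot be told apart. Differences between the groups ranged from about 1.5-fold for the general leukocyte gene Ptprc to far larger ratios for Cxcl13, Ccl19 and Cd3g, whose WT counts were close to 0. The plot of the 8 genes by library shows both the separation and the wide scatter among cKO libraries for several genes.

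**Figure D1:**
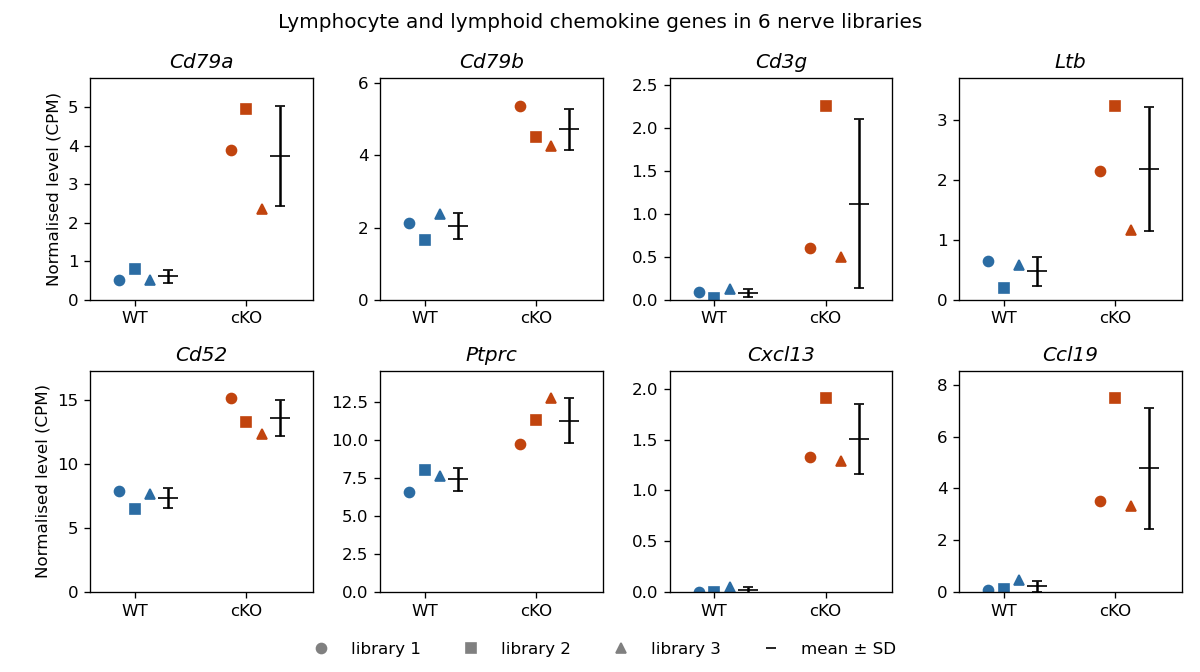
Normalised level (CPM, linear axes from 0) of each of the 8 genes in the 3 WT (blue) and 3 cKO (orange) libraries, with marker shape for the library number and the bar for mean ± SD. In each panel the lowest cKO library lies above the highest WT library, and cKO 2 is the highest library for Cd79a, Cd3g, Ltb, Cxcl13 and Ccl19.

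Of the B cell receptor pair, Cd79a (GRCm38 chromosome 7, 24897381 to 24902197, plus strand) had 129, 127 and 75 counts in cKO 1, 2 and 3 and 24, 32 and 20 counts in WT 1, 2 and 3. This corresponds to 3.73 ± 1.30 CPM in cKO and 0.608 ± 0.167 CPM in WT (mean ± SD, n = 3 per group), a log2 fold change of 2.61 ± 0.37 (SE). Its lowest cKO library stood 2.94 times above its highest WT library. Cd79b (chromosome 11, 106311341 to 106314762, minus strand) had 178, 116 and 136 counts in the cKO and 98, 66 and 94 counts in the WT libraries. Its level went from 2.05 ± 0.365 CPM in WT to 4.72 ± 0.575 CPM in cKO (log2 fold change 1.20 ± 0.24). Counts of Cd79a per count of Cd79b were 0.725, 1.09 and 0.551 in cKO 1, 2 and 3 and 0.245, 0.485 and 0.213 in WT 1, 2 and 3. The groups did not overlap in this ratio, which is a description only, since these values chose both genes.

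Cd3g (chromosome 9, 44969572 to 44980431, minus strand) was the scarcest lymphocyte gene of the 8. It had 20, 58 and 16 counts in cKO 1, 2 and 3 and 4, 1 and 5 counts in WT 1, 2 and 3, or 1.12 ± 0.986 CPM against 0.0792 ± 0.0509 CPM. The group totals of 94 and 10 counts give a ratio of 13.05 after scaling for depth, with an exact 95% interval of 6.79 to 28.1 that covers counting error alone. The library cKO 2 set much of this value, because the log2 fold change of 3.74 ± 0.80 became 2.75 ± 0.70 without it. There were 45.7 counts of Cd3g per 100 of Cd79a in cKO 2, against 15.5 in cKO 1 and 21.3 in cKO 3, and 16.7, 3.13 and 25 in WT 1, 2 and 3, so that the groups overlapped.

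Ltb (chromosome 17, 35194439 to 35196320, plus strand), the membrane ligand of the lymphotoxin beta receptor, had 71, 83 and 37 counts in the cKO and 30, 8 and 23 counts in the WT libraries. Its mean was 2.18 ± 1.04 CPM in cKO and 0.476 ± 0.242 CPM in WT (log2 fold change 2.17 ± 0.53). The groups came closest between cKO 3 at 1.16 CPM and WT 1 at 0.649 CPM. Its order among WT libraries, with WT 1 highest and WT 2 lowest, was also that of Cd52 and of the summed muscle genes. Among cKO libraries cKO 2 was highest for Ltb and muscle, while cKO 3 was lowest for Ltb and cKO 1 for muscle.

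Cd52 and Ptprc are not confined to lymphocytes, as macrophages and other leukocytes carry them too. Cd52 (chromosome 4, 134082448 to 134095082, minus strand), a small glycoprotein of the leukocyte surface, had 502, 342 and 394 counts in the cKO and 364, 258 and 305 counts in the WT libraries, or 13.6 ± 1.40 CPM against 7.34 ± 0.774 CPM (log2 fold change 0.89 ± 0.15). Its exons overlap those of Crybg2 on the other strand, and the strand setting of the counting is unknown; Crybg2, listed under its older symbol Aim1l, had at most 1 count in any library. Ptprc (chromosome 1, 138062861 to 138175708, minus strand), which encodes the phosphatase CD45 of nucleated blood cells, had 324, 290 and 406 counts in the cKO and 303, 322 and 304 counts in the WT libraries. At 11.3 ± 1.49 CPM in cKO and 7.42 ± 0.775 CPM in WT it differed least (log2 fold change 0.60 ± 0.16), and its lowest cKO library stood only 1.21 times above its highest WT library. Per 100 counts of Ptprc there were 39.8, 43.8 and 18.5 counts of Cd79a in cKO 1, 2 and 3 and 7.92, 9.94 and 6.58 in WT 1, 2 and 3. Counts of Cd52 per count of Ptprc were 1.55, 1.18 and 0.97 in cKO and 1.20, 0.801 and 1.003 in WT, with overlapping groups.

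The lymphoid chemokines were nearly without counts in WT nerves. Cxcl13 (chromosome 5, 95956951 to 95961068, plus strand) had 44, 49 and 41 counts in cKO 1, 2 and 3 and 0, 0 and 2 counts in WT 1, 2 and 3. A count of 0 allows up to 0.0649 CPM in WT 1 and 0.075 CPM in WT 2 (3 counts per library), while the cKO level was 1.51 ± 0.348 CPM. The ratio of the group totals, 134 against 2 counts, was 93.0 with an exact 95% counting interval of 25.3 to 776. Its cKO libraries were closer together than those of Ccl19, with 1.48 times between the highest and the lowest. The fitted fold change of Cxcl13 in the plot of left-out libraries depends on the small count added to zeros and is no bound.

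Ccl19 (chromosome 4, 42754525 to 42756577, minus strand) had 116, 192 and 106 counts in cKO 1, 2 and 3 and 3, 5 and 18 counts in WT 1, 2 and 3. Its level was 4.77 ± 2.35 CPM in cKO and 0.214 ± 0.209 CPM in WT (log2 fold change 4.48 ± 0.63). The library WT 3 held most of the WT counts, and without it the log2 fold change was 5.59. The annotation also lists the pseudogenes Ccl19-ps1 and Ccl19-ps3, so reads shared between copies may be missing from the Ccl19 count. Ccl21a, Ccl21b and Ccl21c, the other CCR7 ligand genes, are listed at 0 in all 6 libraries and also lie among near-identical copies.

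**Figure D2:**
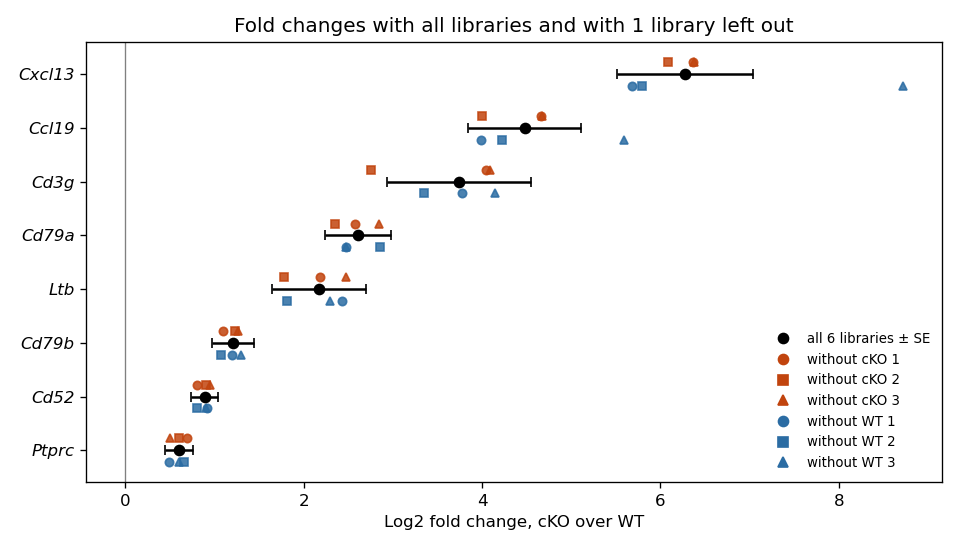
Log2 fold change of each of the 8 genes, cKO over WT, with all 6 libraries (black, bar = SE) and with each library left out (orange for cKO, blue for WT, shape for the number). All points lie above 0; the value of Cd3g drops to 2.75 without cKO 2 and that of Ccl19 goes up to 5.59 without WT 3.

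Levels can be set against each other between genes only per length, here as CPM per kilobase of the longest coding transcript. In cKO libraries the order of the means was Cd52 at 26.5, Ccl19 at 6.17, Cd79b at 3.30, Cd79a at 2.56, Ptprc at 2.22, Ltb at 1.88, Cxcl13 at 1.31 and Cd3g at 1.10 CPM per kilobase. Cd52 stood clear of Ccl19 and Ccl19 clear of Cd79b, while each later neighbour in that order overlapped the next between libraries. In WT libraries the order was Cd52 at 14.3, Ptprc at 1.46, Cd79b at 1.43, Cd79a at 0.417, Ltb at 0.41, Ccl19 at 0.278, Cd3g at 0.0774 and Cxcl13 at 0.0146 CPM per kilobase. In WT each neighbour in that order after Cd52 overlapped the next between libraries except Cd79b and Cd79a, and Ccl19 lay above Cd79a and Ltb in WT 3 and below Cd3g in WT 1.

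Other genes of B cells were mostly scarce. Of 20 listed besides the 8 genes, 12 were tested and 1 rose (edgeR), beside 4.77% of all tested genes, and their median log2 fold change was 1.15 against 0.02 for all tested genes. Of those 12, 5 reached the count filter in every cKO library but not in every WT library, so their direction was in part set by the filter. Spib, a transcription factor of B cells and plasmacytoid dendritic cells, stood at a log2 change of 2.36 ± 0.65 (edgeR adjusted p = 0.05, not under the threshold), and Ms4a1, which encodes CD20, at 1.63 ± 0.53 (edgeR adjusted p = 0.089). Btk and Blnk, which signal behind the receptor and are also found in myeloid cells, had log2 fold changes of -0.12 ± 0.23 and -0.12 ± 0.36. Of 6 plasma cell genes, 3 were tested and Mzb1, a chaperone of antibody assembly, was called (log2 fold change 2.37 ± 0.61, edgeR adjusted p = 0.0393), a call that was lost on leaving out any library but WT 3. Mzb1 reached the filter in 0 WT libraries.

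Of 26 other T cell genes, 11 were tested and 2 rose (edgeR), beside 4.77% of all tested genes. Their median log2 fold change was 1.501, against 0.02 for all tested genes. Of those 11, 7 reached the count filter in every cKO library but not in every WT library, so their direction was in part set by the filter. Skap1, an adaptor of T cell receptor signalling, had 10, 22 and 20 counts in the cKO and 2, 0 and 0 counts in the WT libraries (ratio 36.1, exact 95% counting interval 9.50 to 306, edgeR adjusted p = 0.0108), and it passed the filter through its cKO counts alone. Cd247, the zeta chain of the T cell receptor complex, went from 0.404 ± 0.167 CPM in WT to 1.40 ± 0.384 CPM in cKO (log2 fold change 1.78 ± 0.45, edgeR adjusted p = 0.0358); its call was lost without cKO 2, cKO 3, WT 1 or WT 2. Cd3d did not pass (log2 fold change 1.97 ± 0.60, edgeR adjusted p = 0.0731). Cd3e and Cd8b1, chosen after their values were seen, were too scarce to be tested, with 7, 31 and 6 counts and 6, 31 and 22 counts in cKO 1, 2 and 3 and at most 1 count in each WT library. The sum of the T cell list was 25.3, 50.2 and 34.6 CPM in cKO 1, 2 and 3 and 22.5, 22.8 and 18.8 CPM in WT 1, 2 and 3, most of it from Tcf7, a transcription factor that many other cells use as well. Without Tcf7 the sums were 8.47, 23.3 and 11.3 CPM in cKO and 3.35, 3.40 and 6.35 CPM in WT, again with cKO 2 highest.

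Of 13 genes of natural killer and cytotoxic cells, 2 were tested and 0 called by edgeR; both had an unadjusted p under 0.05, DESeq2 called 1 and limma-voom 0. They were the receptor gene Klrb1c (log2 fold change 1.21 ± 0.34, edgeR adjusted p = 0.0535) and the chemokine gene Ccl5 (1.91 ± 0.72, edgeR adjusted p = 0.134). Among 22 general leukocyte genes, all tested, 5 rose (edgeR), beside 4.77% of all tested genes. Their median log2 fold change was 0.37, against 0.02 for all tested genes. Il2rg, the common chain of several interleukin receptors, went from 4.21 ± 0.358 to 8.54 ± 1.32 CPM (log2 fold change 1.02 ± 0.18, edgeR adjusted p = 0.00891) and was called in all 6 fits with 1 library left out. Lsp1 (log2 fold change 0.58 ± 0.14), Arhgdib (0.32 ± 0.08), Cytip (1.64 ± 0.42) and Cd37 (0.94 ± 0.24) were the others, and the count of calls fell to 1 on leaving out any library but WT 3. Of 18 macrophage genes, all tested, 1 was called higher, beside 4.77% of all tested genes. It was the protease gene Ctss (log2 fold change 0.39 ± 0.09, edgeR adjusted p = 0.0272). Macrophage calls numbered 8 without WT 3, 4 with total counts and 0 without cKO 3, WT 1 or WT 2. The list summed to 797.1 to 859.2 CPM in cKO and 646.9 to 870.6 CPM in WT, with WT 3 the highest of all libraries. The call of Ctss was lost without cKO 1, cKO 3, WT 1 or WT 2. Mertk, a receptor for the uptake of dying cells, and the complement gene C1qa did not pass (edgeR adjusted p = 0.0704 and 0.126). Whether the lymphocyte and macrophage lists differ in their response was not tested.

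**Figure D3:**
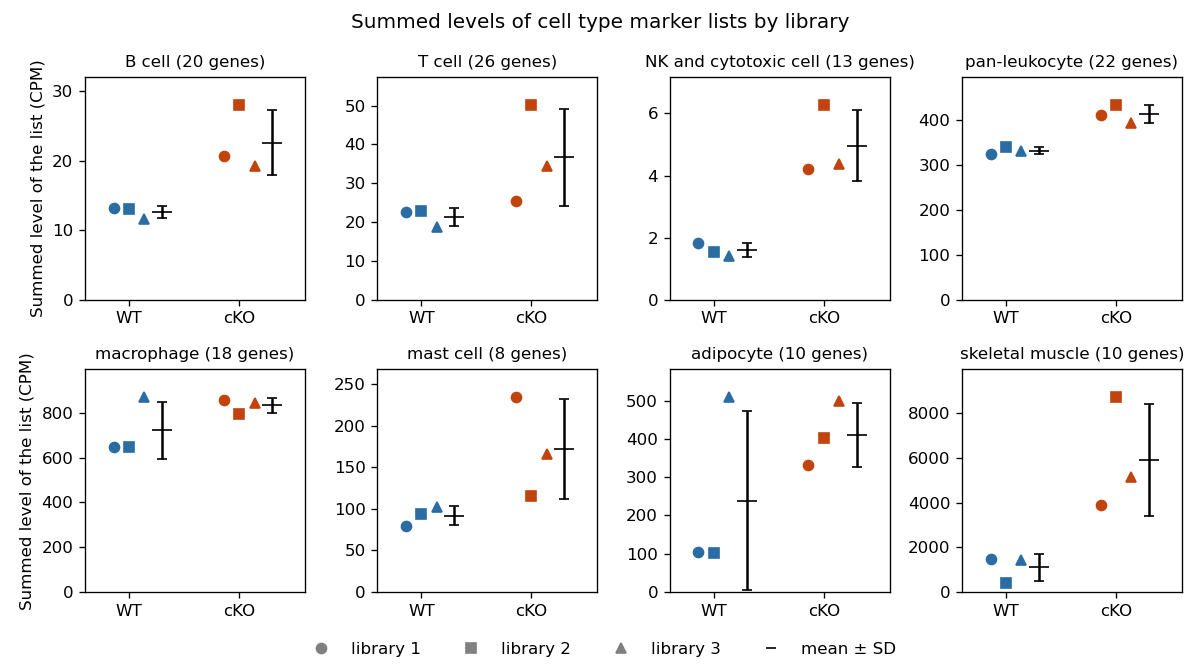
Summed level (CPM, linear axes from 0) of 8 marker lists in the 3 WT (blue) and 3 cKO (orange) libraries, with mean ± SD. The groups do not overlap for the B cell, T cell, cytotoxic, pan-leukocyte, mast cell and muscle lists, while WT 3 reaches the cKO level for macrophage and adipocyte genes.

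Of 26 chemokines and receptors beyond the 8 genes, 19 were tested. Of these, 12 had a log2 fold change above 0 and 3 rose (edgeR), and the median log2 fold change was 0.09. Over all tested genes, 53.7% had a log2 fold change above 0 and 4.77% were called higher. Cxcl9, an interferon-induced attractant of activated T cells, had 135, 190 and 508 counts in the cKO and 73, 55 and 77 counts in the WT libraries (log2 fold change 2.48 ± 0.46, edgeR adjusted p = 0.00992). Cxcl14, a chemokine of stromal and epithelial cells, went from 19.8 ± 3.19 to 54.8 ± 5.91 CPM (log2 fold change 1.46 ± 0.14, edgeR adjusted p = 0.000606), and Cxcr4, the receptor of CXCL12, from 8.62 ± 1.01 to 15.4 ± 0.328 CPM (log2 fold change 0.84 ± 0.14, edgeR adjusted p = 0.00584). These 3 were called in all 6 fits with 1 library left out. The receptors of the lymphoid chemokines were below the filter: Cxcr5 had 8, 23 and 19 counts in cKO and 9, 5 and 2 in WT, and Ccr7 had 9, 44 and 3 counts in cKO and 3, 0 and 6 in WT. The groups overlapped for Ccr7, while for Cxcr5 cKO 1 at 0.241 CPM lay just above WT 1 at 0.195 CPM.

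In the lymphotoxin pathway, 13 of 16 listed genes were tested and 3 rose (edgeR), beside 4.77% of all tested genes. Their median log2 fold change was 0.29, against 0.02 for all tested genes. Ltbr, the receptor for lymphotoxin beta, went from 68.05 ± 3.76 to 84.1 ± 3.10 CPM (log2 fold change 0.30 ± 0.08, edgeR adjusted p = 0.0452), and the related receptor Tnfrsf1a from 55.3 ± 3.40 to 72.5 ± 1.79 CPM (log2 fold change 0.39 ± 0.08, edgeR adjusted p = 0.0171). Tnfsf11, the ligand RANKL, had 13, 30 and 23 counts in cKO and 7, 7 and 1 counts in WT (log2 fold change 2.63 ± 0.68, edgeR adjusted p = 0.0402), and reached the filter in 0 WT libraries. Ltbr held its call without WT 3 only, Tnfrsf1a without cKO 1 or WT 3, and Tnfsf11 without cKO 1, so 0 to 2 of them were called at a time. Relb and Nfkb2, the transcription factors behind this receptor, had log2 fold changes of 0.06 ± 0.14 and -0.10 ± 0.09 and did not pass.

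Among 17 genes of lymphoid stroma, high endothelial venules and lymphatic vessels, 13 were tested, 4 rose and 1 fell (edgeR; 4.77% and 6.17% of all tested genes). Of those 13, 5 reached the filter in every cKO library but not in every WT library; Glycam1 and Stab2 reached it in 0 WT libraries, so these calls passed the filter through cKO counts alone. Glycam1, a sialomucin of high endothelial venules, the vessels through which lymphocytes enter lymph nodes, had 22, 75 and 30 counts in cKO 1, 2 and 3 and 0, 4 and 1 counts in WT 1, 2 and 3 (log2 fold change 5.10 ± 0.94, edgeR adjusted p = 0.00992). It was called in all 6 fits with 1 library left out. Madcam1, an addressin of such vessels, had 40, 70 and 7 counts in cKO and 10, 11 and 25 counts in WT, with overlapping groups, and did not pass (edgeR adjusted p = 0.187). Stab2, a scavenger receptor of sinus endothelium, Flt4, a receptor of lymphatic growth factors, and Icam1, an adhesion molecule, also rose, with log2 fold changes of 2.59 ± 0.57, 0.82 ± 0.22 and 0.74 ± 0.18 (edgeR adjusted p = 0.0201, 0.0449 and 0.0287). Flt4 and Icam1 lost their calls on leaving out any library but WT 3, and Stab2 without cKO 2, cKO 3, WT 1 or WT 2. Reln, which lymphatic vessels and several other cells express, fell from 226.9 ± 14.02 to 142.7 ± 11.4 CPM (log2 fold change -0.67 ± 0.09, edgeR adjusted p = 0.00315). Cr2, a marker of follicular dendritic cells and mature B cells, had at most 6 counts in any library.

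**Figure D4:**
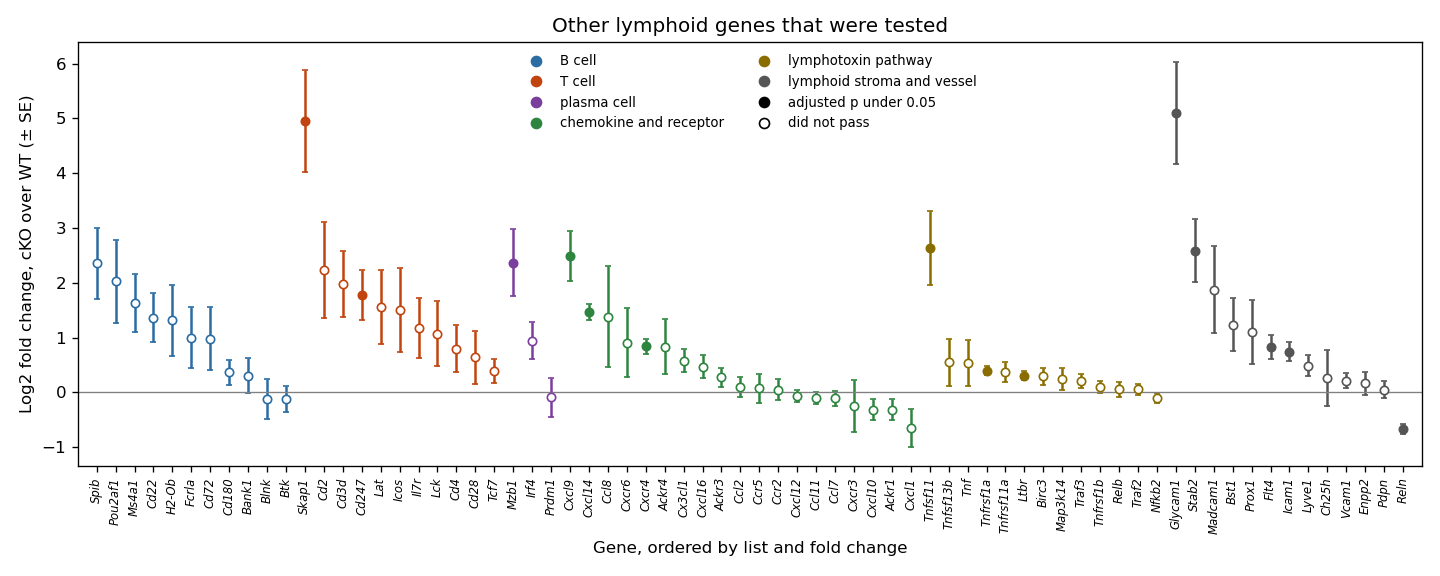
Log2 fold change (cKO over WT, bar = SE) of other tested genes in 6 lymphoid lists, coloured by list, with filled points for an edgeR adjusted p under 0.05 and open points for genes that did not pass. Skap1 and Glycam1 have the highest values, 4.95 and 5.10, and Reln is the filled point below 0.

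Likeness across libraries was measured as the root mean square difference between log2 CPM profiles, each centred on the gene's own mean over the 6 libraries; all points share libraries and depth, and it is a description. Nearest to Cd79a were Tfap2a at 0.282, Fut7 at 0.301 and Mro at 0.314 on the log2 scale. Fut7 had 12, 9 and 10 counts in cKO and 1, 2 and 0 in WT. Nearest to Cd3g were Cd209b at 0.271, Kcnc4 at 0.315 and Apol7c at 0.344, all with their highest level in cKO 2. Cd209b had 13, 29 and 15 counts in cKO and 2, 0 and 2 in WT. Nearest to Ptprc were Robo1 at 0.077, Ly6e at 0.094 and Rpl30 at 0.095. Nearest to Cxcl13 were Klk10 at 0.555, Otop1 at 0.57 and Chrne at 0.625, so that its nearest gene lay farther from it than the nearest genes of the other 3 did from theirs. Centring over both groups keeps in these distances the group difference by which Cd79a, Cd3g, Ptprc and Cxcl13 were chosen. Genes higher in cKO were therefore favoured as neighbours. Fut7, Cd209b, Apol7c, Otop1 and Chrne were below the filter level in every WT library and were tested through their cKO counts.

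Muscle and mast cell markers were in part also higher in cKO, beside the 4.77% of all tested genes that edgeR called higher. Of the 10 muscle genes, 9 rose (edgeR), Acta1, the actin of skeletal muscle, by 2.42 ± 0.46 on the log2 scale (edgeR adjusted p = 0.0115), and the sum was highest in cKO 2, the library in which 5 of the 8 genes were highest. Of 8 mast cell genes, 7 were tested and 2, the protease genes Tpsb2 and Mcpt4, rose (edgeR adjusted p = 0.018 and 0.0387). Their list was lowest among cKO libraries in cKO 2, at 115.4 CPM against 234.1 and 166.1 CPM, and at 79.5 to 101.7 CPM in WT. The call of Tpsb2 was lost without cKO 3 or WT 1, and that of Mcpt4 without cKO 1, cKO 3, WT 1 or WT 2. The part of muscle and mast cells in the levels of the 8 genes was not tested.

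The 10 adipocyte genes summed to 332.1 to 498.5 CPM in cKO and to 105.3, 102 and 509.5 CPM in WT 1, 2 and 3, so that WT 3 was the highest of all libraries. Among WT libraries WT 3 was also highest for Cd79b, Cd3g, Cxcl13 and Ccl19, WT 1 for Cd52 and Ltb, and WT 2 for Cd79a and Ptprc. By edgeR, DESeq2 and limma-voom, 0 adipocyte, 0 dendritic cell and 0 blood genes were called, and 0 had an unadjusted p under 0.05. With edgeR 10 adipocyte genes were called higher without WT 3 and 1 without cKO 1, 2 blood genes without WT 1, and 0 dendritic cell genes in any of the 6 fits with 1 library left out. Red cell and platelet genes summed to 151.2 to 208.7 CPM in cKO and 120.4 to 181.8 CPM in WT, and dendritic cell genes to 9.89 to 14.5 CPM and 11.8 to 14 CPM, with overlapping groups in both. Alas2 and Pf4 made up most of the red cell and platelet sum, and each listed globin gene lay at 6 CPM or less in every library. Ppbp, the other listed platelet gene, lay at 0.211 to 1.45 CPM, and Hbb-bt and Hbb-b2 at 0 in all 6 libraries. Reads shared between globin copies may be missing, so these sums are no measure of blood content. Of 7 neutrophil genes 0 were called by edgeR, with 2 at an unadjusted p under 0.05, 1 called by DESeq2, 0 by limma-voom and 1 by edgeR without WT 1, and their sums of 24.6 to 38.8 CPM in cKO and 7.41 to 25.7 CPM in WT overlapped. Of 6 endothelial genes 0 were called by any of the 3 tools, with 2 at an unadjusted p under 0.05, and 4 were called by edgeR without WT 3. Of 7 fibroblast genes 2 rose (edgeR), beside 4.77% of all tested genes. These were Pi16 and Clec3b, both losing the call on leaving out any library but WT 3.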

How the data were processed

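RNA from sciatic nerve was sequenced in 3 cKO and 3 WT libraries. The authors deposited raw counts per gene symbol, made with TopHat2 2.0.13 and HTSeq on mm10, per the submitters' processing notes; HTSeq's version, its annotation and its strand setting are not given in the sources used. Each file ends in 5 closing lines that name no gene, and these were left out. Reads without a feature were 12.1% to 14.3% and ambiguous reads 1.63% to 2.82% of all counts, closing lines included.

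Genes were filtered with filterByExpr (minimum count 10), which left 14789, scaled by TMM and fitted with edgeR 4.0.16 (R 4.3.3; quasi-likelihood F test, Benjamini-Hochberg adjustment over all tested genes, threshold 0.05). The fit was tested on simulated data. CPM used TMM-scaled library sizes, and 1 count was 0.0216 to 0.039 CPM. Limits for a count of 0 (3 counts) and exact 95% intervals cover counting error only. Likeness used a prior count of 2. Alternatives used limma 3.58.1 and DESeq2 1.42.0, among others. Positions are GENCODE M21.

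The 8 genes and 18 lists were chosen with earlier results of these data known. Named were the 8 genes, Yap1 and Wwtr1, the 3 genes of lowest p per list, all called genes of the lymphoid lists and the 3 genes most like each of 4 members. Btk, Blnk, Relb, Nfkb2, Cd3e, Cd8b1, Tcf7, Cxcr5, Ccr7, Ccl21a to c, Madcam1, Cr2, Cytip and Cd37 were added after their values were seen. Some genes the rule names are not reported here. Replicate numbers were not treated as pairs in the main fit.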

Additional observations from a re-analysis of the deposited data

How the results depend on the processing

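All 8 genes had a log2 fold change above 0 under every alternative that tested them (at least 50 counts in 3 libraries left 5, without Cd3g, Cxcl13 and Ltb). With 1 library left out, Cd3g ranged from 2.75 to 4.15, Cxcl13 from 5.68 to 8.72 and Ccl19 from 3.98 to 5.59. Calls over all genes were 1273 higher and 606 lower with total counts, and 276 to 1075 higher and 459 to 1120 lower with 1 library left out (fewest without cKO 3, most without WT 3). B cell genes called higher numbered 2 with DESeq2 size factors, upper-quartile factors or total counts, 3 with the DESeq2 test, 4 without the filter and 1 to 3 with 1 library left out. Plasma cell genes numbered 0 with DESeq2, with at least 50 counts or without the filter, and 0 to 1 with 1 library left out. T cell genes numbered 0 with at least 50 counts, 5 without the filter and 1 to 6 with 1 library left out (1 without cKO 2 or cKO 3, 6 without cKO 1). Cytotoxic genes numbered 1 with upper-quartile factors, total counts, DESeq2, at least 50 counts or no filter, and 0 to 1 with 1 library left out. General leukocyte genes numbered 10 with total counts and 1 to 4 with 1 library left out, chemokine genes 3 to 5, lymphotoxin genes 0 to 2, and stroma genes 2 with at least 50 counts and 1 to 4 with 1 library left out. With replicate numbers as a block there were 461 genes higher, and 2 B cell, 0 plasma cell, 1 T cell, 2 general leukocyte, 0 lymphotoxin and 1 stroma gene. Deviations from group means correlated at -0.207, -0.122 and 0.072 between same-numbered libraries and at -0.1 to 0.222 between differently numbered ones. Such deviations sum to 0 within each group, so these values cannot settle whether the numbers pair libraries. Prdm1 turned from -0.09 to 0.041 with total counts, 0.10 without cKO 1 and 0.18 without WT 3 (-0.34 to 0.18 with 1 library left out). With a prior count of 5, 1 of the 3 genes most like Cd3g and 0 of those most like Cxcl13 were shared. The causes were not tested. Cd3g, Ltb and Cxcl13 had under 100 counts in every library, which limits their precision. Cd79a had 20 to 32 counts and Ccl19 had 3 to 18 counts in the WT libraries, which limits their ratios as well.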
